A study of Rattus norvegicus with 12 samples.

Results

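The overloaded right ventricle (RV) was compared with the left ventricle (LV) of sham-operated rats. The comparison used 6 of the 12 libraries of the series, 3 from VO RV and 3 from sham LV, and 13910 of the 32545 genes in the deposited table had enough signal to be tested. All rats were Sprague–Dawley, operated on at postnatal day 1 (P1), and the free walls of the ventricles were taken for RNA-seq at P7. In the volume overload (VO) groups a fistula joined the abdominal aorta to the inferior vena cava, and the sham groups had the operation without the fistula. VO RV and sham LV differ in ventricle and in load together, so that within this comparison the effects of ventricle and load cannot be told apart. For that reason the main results are set beside sham RV against VO LV, the only RV against LV comparison that shares no library with it and in which the load lies on the other side. The labels do not say whether the LV and RV libraries of one number came from the same heart, or whether the 3 libraries of a group came from separate animals. P values therefore measure the spread between these libraries. In RNA from a whole wall, fewer cells of a type and less RNA per cell cannot be told apart.

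The LV is derived mainly from the first heart field and the RV from the second, and transcription factors such as Hand1, which marks the early LV, and Hand2, Tbx5 and the Irx genes pattern the chambers. After birth the pressure in the RV drops while that in the LV climbs, and the walls become unlike in mass and metabolism. A ventricle under volume load is stretched, and stretch and adrenergic drive are known to induce natriuretic peptides, immediate early genes and matricellular proteins such as Ctgf and Cyr61.

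The reads on genes numbered 14121713 to 16871371 in a library. Marker lists were summed in FPKM (fragments per kilobase, scaled to the size of the library) in each library. Ventricular cardiomyocyte markers were abundant in all 6 libraries, with a sum of 26312 to 28126 FPKM in sham LV and 18785 to 27242 FPKM in VO RV. The lowest of these sums belonged to VO RV replicate 2, which stood apart. Its atrial cardiomyocyte markers summed to 4952 FPKM, against 580 and 499 FPKM in the other VO RV libraries and 906 to 1354 FPKM in sham LV, and the atrial genes Sln (388 FPKM) and Bmp10 (72.4 FPKM) were below 0.5 FPKM in the other 5 libraries. Its fibroblast markers were also the highest of the 6, at 5148 FPKM, and its red blood cell markers the lowest, at 6729 FPKM. Sham LV replicate 2 differed from the rest of its group as well, with 14.4% of its reads on mitochondrial genes, against 26.2% and 23.8%, and with 375 FPKM of the ventricular myosin light chain Myl2, against 1129 and 1093 FPKM. Y-linked genes were read in sham LV replicates 1 and 2 and in VO RV replicate 3 but summed to under 1 FPKM in the other 3 libraries, so the groups differ in sex make-up. In the mirrored comparison Y-linked genes were read in sham RV replicates 1 and 2 and in no VO LV library, and sham RV replicate 1 held Sln (97.7 FPKM) and Bmp10 (12.6 FPKM), both under 1 FPKM in the rest of its group. The part of sex and atrial transcript in single results was not tested beyond the covariate fits of the closing section. Pairs of sham LV libraries correlated at r = 0.964 to 0.973 over the tested genes (Pearson, log2 scale), pairs of VO RV libraries at 0.961 to 0.971 and pairs of 1 library from each group at 0.941 to 0.979. The library nearest to VO RV replicate 3 was sham LV replicate 1.

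**Figure D1:**
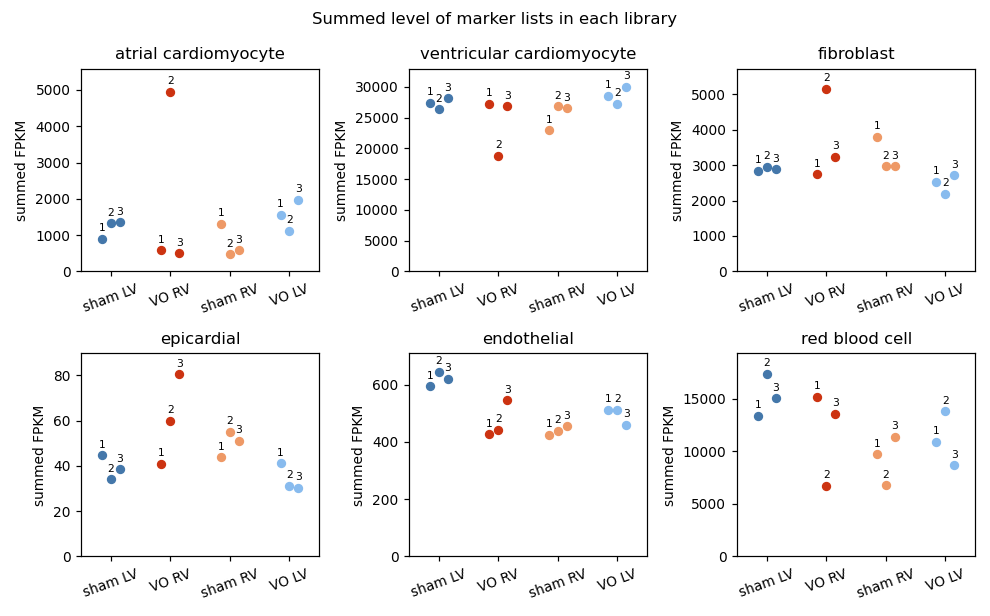
Summed FPKM of 6 marker lists in each library (points, numbered by replicate) of sham LV, VO RV, sham RV and VO LV. VO RV replicate 2 lies far above the other VO RV libraries for atrial markers (4952 against 580 and 499 FPKM) and below them for ventricular cardiomyocyte markers (18785 FPKM).

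Only 5 genes differed between VO RV and sham LV at the thresholds of the study's methods for p (under 0.05 once adjusted by Benjamini-Hochberg) and for fold change (over 1.3), which is 0.0359% of the tested genes by limma. Nr4a1, Mpped2, Ppp1r15a and Ctnnbl1 were higher in VO RV, and Hand1 was lower. At an unadjusted p under 0.05 with the same fold, 553 genes were higher (3.98%) and 506 lower (3.64%) in VO RV. In sham RV against VO LV, 2 genes passed the adjusted test (0.0144%), Hand1 and Nppb, both lower in sham RV, and 241 genes (1.73%) were higher and 212 (1.52%) lower in sham RV at the unadjusted p. The number of differentially expressed genes (DEGs) depended on the libraries in the model. When only the 6 libraries compared were fitted, no gene passed in VO RV against sham LV (847 genes at the unadjusted p), and the largest and smallest counts after leaving out a library were 7, without VO RV replicate 3, and 1, without sham LV replicate 3. Lack of overlap was common, with 770 genes higher and 955 lower in all 3 VO RV libraries than in all 3 sham LV libraries, or 12.4% of the tested genes. The unadjusted total of 1059 genes became 640 without VO RV replicate 2 and 1839 without VO RV replicate 3.

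Hand1, a transcription factor of LV development, had the smallest adjusted p. Its gene (ENSRNOG00000002582) is listed on chromosome 10 between 43250745 and 43253296. The sham LV libraries gave 2.58, 2.10 and 3.48 FPKM and the VO RV libraries 0.318, 0.316 and 0.345 FPKM. The groups did not overlap, and the mean was 8.34-fold higher in sham LV than in VO RV. On the scale of log2(FPKM + 0.5), which understates the change of low genes, Hand1 fell by 1.94 in VO RV (standard error 0.18, adjusted p = 0.0045, limma). The level was low in reads as well as in FPKM, with 5, 6 and 6 reads in VO RV and 36 to 51 reads in sham LV.

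The other libraries extended this order without any overlap. Sham RV gave 0.802, 1.13 and 1.21 FPKM and VO LV 5.21, 4.10 and 4.71 FPKM, so that the 4 groups ranked VO RV, sham RV, sham LV, VO LV, with every library of a group below every library of the next. In sham RV against VO LV the log2 fold change was −1.74 (adjusted p = 0.0131, limma). The RV was thus below the LV whichever ventricle was loaded. Set side by side, the log2 difference between RV and LV was −1.04 in the sham groups and −2.64 in the VO groups. In VO RV against sham LV, Hand1 passed the adjusted test in 28 of 29 alternatives, with the 6 libraries fitted alone as the exception (adjusted p = 0.164, limma). In sham RV against VO LV it did not pass with the 6 libraries alone or with the Y-linked level as a covariate. Nor did it pass there without sham RV replicate 3, VO LV replicate 1 or VO LV replicate 2.

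Mpped2, which encodes a metallophosphoesterase, and Ctnnbl1, which encodes a spliceosome-associated protein, were the DEGs that, like Hand1, kept their side between RV and LV libraries. For Mpped2 (ENSRNOG00000004863, chromosome 3 between 97721668 and 97896422) sham LV gave 5.27, 3.84 and 5.14 FPKM and VO RV 15.1, 9.48 and 11 FPKM. The groups did not overlap, and Mpped2 rose by 1.22 in VO RV (standard error 0.17, adjusted p = 0.0433, limma). Sham RV (11.3 to 13.2 FPKM) overlapped VO RV, and VO LV (6.21 to 7.79 FPKM) lay between both RV groups and sham LV. For Ctnnbl1 (ENSRNOG00000012021, chromosome 3 between 154212202 and 154373169) sham LV gave 13.3, 14.5 and 13.6 FPKM and VO RV 19.3, 20.5 and 22.3 FPKM. Ctnnbl1 rose by 0.57 (standard error 0.08, adjusted p = 0.0433, limma) and was the smallest of the 5 changes. In the mirrored comparison the log2 fold changes of Mpped2 and Ctnnbl1 were 0.76 and 0.25, neither past the adjusted test. No adjusted p of Ctnnbl1 was under 0.05 when a library was left out, and that of Mpped2 was under 0.05 in 1 of 12 such fits.

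Nr4a1 and Ppp1r15a showed another order, in which the VO libraries of both ventricles lay above the sham libraries of both. Nr4a1 is an immediate early orphan nuclear receptor, Ppp1r15a encodes the stress-induced phosphatase subunit GADD34, and Sik1, next in line by p, is a salt-inducible kinase induced by cyclic AMP. The cyclic AMP response element has the core TGACG, so the 250 bases before the start of each gene are shown, from RefSeq (GRCr8), with TGACG or its reverse complement in capitals. The windows are chr7:134259888-134260137 (plus strand) for Nr4a1, chr20:9958647-9958896 (minus strand) for Sik1 and chr1:105139597-105139846 (minus strand) for Ppp1r15a.
Nr4a1: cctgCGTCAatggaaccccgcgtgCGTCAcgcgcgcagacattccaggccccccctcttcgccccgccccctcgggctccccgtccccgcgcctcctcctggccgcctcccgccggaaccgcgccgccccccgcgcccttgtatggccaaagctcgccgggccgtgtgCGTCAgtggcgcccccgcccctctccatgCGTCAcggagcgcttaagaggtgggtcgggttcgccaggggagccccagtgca
Sik1: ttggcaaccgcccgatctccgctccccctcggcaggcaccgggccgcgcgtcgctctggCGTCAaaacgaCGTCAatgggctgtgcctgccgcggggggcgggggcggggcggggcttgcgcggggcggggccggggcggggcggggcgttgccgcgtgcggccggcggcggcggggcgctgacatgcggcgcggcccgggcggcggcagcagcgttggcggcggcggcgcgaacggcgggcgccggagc
Ppp1r15a: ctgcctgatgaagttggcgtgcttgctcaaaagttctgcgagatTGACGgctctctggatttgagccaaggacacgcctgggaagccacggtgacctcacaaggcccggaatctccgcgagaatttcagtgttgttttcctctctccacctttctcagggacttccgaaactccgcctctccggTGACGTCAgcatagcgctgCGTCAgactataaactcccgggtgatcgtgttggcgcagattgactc
TGACG occurs on either strand in 18.2% of the 33469 windows of this length in the RefSeq table, and the full element TGACGTCA in 1.59%. Nr4a1 has 4 matches, Sik1 has 2, and Ppp1r15a has 4, of which a pair on opposite strands overlaps as the full element. The windows of Hand1, Mpped2 and Ctnnbl1 hold no TGACG, like most windows in the RefSeq table. Whether cyclic AMP plays a part in the order of any of these genes was not tested. A match describes the letters of the window and is not a measured binding site.

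For Nr4a1 (ENSRNOG00000007607, chromosome 7 between 142905758 and 142920216) sham LV gave 6.26, 7.4 and 6.92 FPKM and VO RV 17, 18.9 and 14.2 FPKM. The groups did not overlap, the mean was 2.44-fold higher in VO RV, and the gene rose by 1.22 (log2, standard error 0.14, adjusted p = 0.0178, limma). Sham RV gave 8.17, 9.96 and 7.94 FPKM and VO LV 13.5, 18.4 and 14.9 FPKM, so the sham libraries spanned 6.26 to 9.96 FPKM and the VO libraries 13.5 to 18.9 FPKM. The sign in sham RV against VO LV was therefore the opposite (log2 fold change −0.81). Nr4a1 passed in 19 of 29 alternatives and in 9 of the 12 fits without 1 library. It did not pass with the Y-linked level as a covariate (log2 fold change 1.20, adjusted p = 0.0761, limma) or with the atrial level as one (1.18, adjusted p = 0.0554, limma). Y-linked genes were read in more sham than VO libraries.

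For Ppp1r15a (ENSRNOG00000020938, chromosome 1 between 101511901 and 101514974) sham LV gave 22.6, 17.4 and 18.3 FPKM and VO RV 38.0, 30.5 and 33.7 FPKM. It rose by 0.80 in VO RV (standard error 0.11, adjusted p = 0.0433, limma), and it passed in 11 of 29 alternatives and in 2 of the 12 fits without 1 library. All sham libraries were at or below 26.3 FPKM and all VO libraries at or above 28.1 FPKM, a narrow gap. Sik1 (ENSRNOG00000001189, chromosome 20 between 10668411 and 10680283) just missed the threshold, with 5.05, 4.84 and 4.68 FPKM in sham LV and 13.1, 14.4 and 8.83 FPKM in VO RV. Its log2 fold change was 1.21 (standard error 0.18, adjusted p = 0.0512, limma). With the load on the LV the change was −1.09, from 5.33 to 7.81 FPKM in sham RV and 13.0 to 15.6 FPKM in VO LV. For these single genes the exact permutation test of 3 against 3 libraries cannot give a p below 0.10, which is its value for each of the 6.

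**Figure D2:**
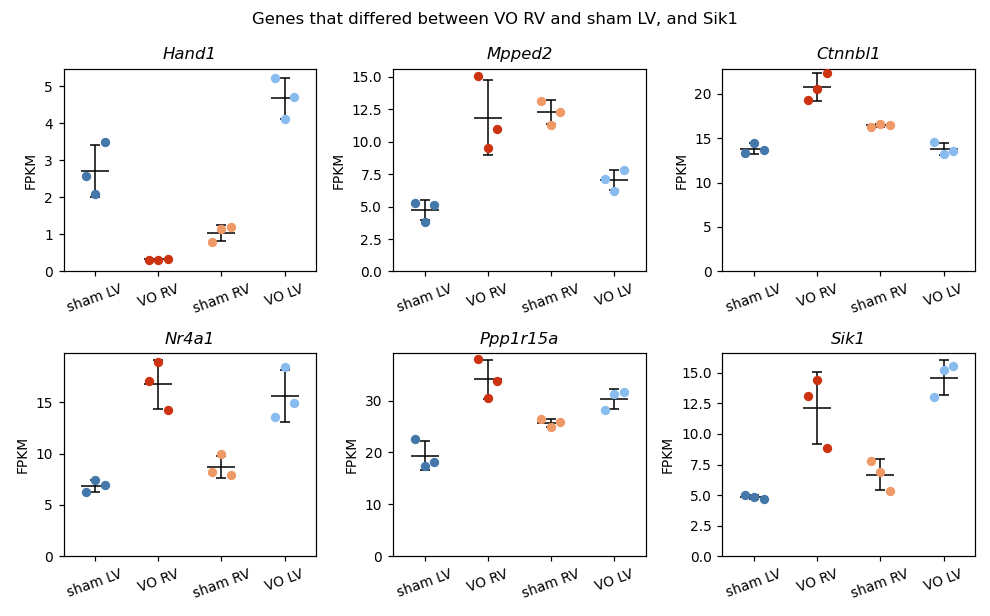
FPKM of the 5 DEGs and Sik1 in each library (points) of sham LV, VO RV, sham RV and VO LV, with the mean and SD (bars, n = 3). Hand1 separates all 4 groups, with VO RV between 0.316 and 0.345 FPKM and VO LV between 4.10 and 5.21 FPKM, whereas the VO libraries of both ventricles lie above all sham libraries for Nr4a1, Ppp1r15a and Sik1.

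The difference between the 2 comparisons, which share no library, was tested in the same model, a contrast chosen after the values were seen that equals the VO minus sham difference summed over both ventricles. It passed the adjusted test for 2 of 13910 genes (0.0144%), Nr4a1 and Sik1. The mean of the 2 comparisons, likewise chosen after the values were seen, passed for 12 genes (0.0863%), among them Hand1, Mpped2, Ctnnbl1, Tceal7, Mgp, Ehd1, Hcn4, Epha3 and Agr2. Of the 553 genes higher in VO RV at the unadjusted p, 85 (15.4%) were also higher in sham RV than in VO LV, or 35.3% of the 241 genes of that list, and 11 (1.99%, or 5.19% of 212) were lower there. Of the 506 genes lower in VO RV, 52 (10.3%, or 24.5% of 212) were also lower in sham RV and 7 (1.38%, or 2.90% of 241) were higher.

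**Figure D3:**
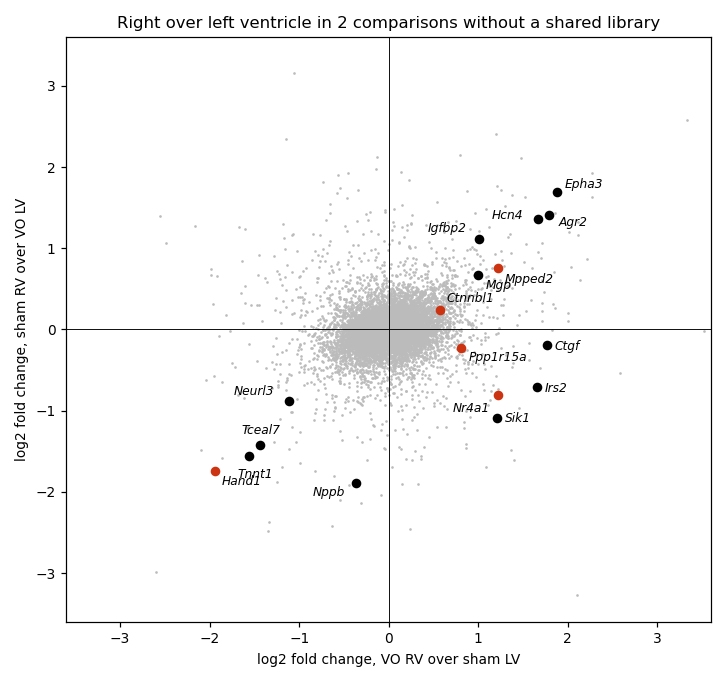
Log2 fold change of VO RV over sham LV (x axis) against that of sham RV over VO LV (y axis) for the tested genes (grey points, of which 4 lie outside the axes), with DEGs of the first comparison in red and other named genes in black. Hand1 lies at −1.94 and −1.74, among the genes lower in the RV in both, while Nr4a1 (1.22 and −0.81) and Sik1 (1.21 and −1.09) have opposite signs.

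A group of genes was higher in the RV in both comparisons, without passing the adjusted test in the first. Part of the naming rule picked genes for having the same sign, or opposite signs, in both comparisons. For genes named that way the pattern of signs is set by selection and is not a separate result. Hcn4, the main pacemaker channel subunit, had 0.566, 0.827 and 0.576 FPKM in sham LV and 3.64, 3.81 and 2.22 FPKM in VO RV (1.66 on the log2 scale with a standard error of 0.28, adjusted p = 0.0957, limma). It was 3.01 to 4.06 FPKM in sham RV and 0.513 to 1.76 FPKM in VO LV (log2 fold change 1.36), so that all RV libraries lay above all LV libraries. Epha3, an ephrin receptor, had 0.310 to 0.507 FPKM in sham LV and 2.21 to 3.6 FPKM in VO RV (1.88 and 1.70). Agr2, an endoplasmic reticulum protein of secretory cells, had 0.139 to 0.830 FPKM in sham LV and 1.99 to 3.04 FPKM in VO RV (1.79 and 1.41). Mgp, the matrix Gla protein that inhibits calcification, was far more abundant, with 290, 163 and 223 FPKM in sham LV and 420, 473 and 423 FPKM in VO RV (1.00 and 0.67). Both RV groups lay above both LV groups for Epha3, Agr2 and Mgp as well. The insulin-like growth factor binding proteins Igfbp2 (1.01 and 1.11) and Igfbp5 (0.85 and 0.61) and the complement protease Masp1 (0.89 and 0.32) followed the same order. Aldh1a1, a retinaldehyde dehydrogenase, was 0.76 higher on the log2 scale in VO RV but 0.11 in sham RV against VO LV.

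Genes lower in the RV in both comparisons were led, after Hand1, by Tceal7, a small protein of the transcription elongation factor A-like family. Sham LV gave 134, 149 and 129 FPKM and VO RV 76.1, 32.1 and 52.2 FPKM (log2 fold change −1.44, standard error 0.23, adjusted p = 0.0915, limma). Sham RV (46.8 to 51.6 FPKM) and VO LV (120 to 146 FPKM) gave nearly the same difference, −1.43. Tnnt1, the slow skeletal troponin T, had 8.88, 31.3 and 8.67 FPKM in sham LV and 6.14, 2.69 and 4.56 FPKM in VO RV (−1.55 and −1.56), and 1 sham LV library stood above the others, without which the first value was −0.96. The ubiquitin ligase Neurl3 (−1.12 and −0.89), the tetrahydrobiopterin enzyme Gch1 (−0.63 and −0.61) and the endosomal protein Ehd1 (−0.41 and −0.50) also kept their sign. Ehd1 was 80.4 to 91.0 FPKM in sham LV and 61.4 to 70.6 FPKM in VO RV. By contrast, Gimap9, a lymphocyte-associated GTPase (−0.78), the docking protein Dok4 (−0.46) and the chemokine receptor Cxcr4 (−0.74) had log2 fold changes of −0.12, −0.12 and −0.17 in sham RV against VO LV.

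Of 35 tested cardiac chamber transcription factors, 1 passed the adjusted test, Hand1, and 5 were higher and 6 lower at the unadjusted p, with a median log2 fold change of 0.15 (−0.004 over all tested genes). In sham RV against VO LV 1 was higher and 3 lower (median −0.01). Without VO RV replicate 2, and likewise without sham LV replicate 2, the counts were 3 and 5, and without VO RV replicate 3 they were 8 and 5. The 5 higher genes were Tbx20, Tbx18, Gata4, Meis2 and Smyd1, and Tbx2, Tbx3, Irx1 and Hey1 were among the lower genes. Gata4, a central cardiac activator, had 51.6, 34.4 and 45.7 FPKM in sham LV and 68.1, 79.3 and 61.5 FPKM in VO RV (log2 fold change 0.67, adjusted p = 0.16, limma), without overlap. The mirrored comparison gave 0.02, and sham LV was the lowest of the 4 groups. Tbx20 (1.10 and −0.09) and the muscle methyltransferase Smyd1 (0.68 and −0.01) also had values near 0 in the mirrored comparison, and both overlapped between VO RV and sham LV. Among the VO RV and sham LV libraries the highest Tbx20 value belonged to VO RV replicate 2. Without that library its log2 fold change was 0.59, and without VO RV replicate 3 it was 1.60. Meis2, a homeobox factor, kept its side, with 8.54, 4.10 and 7.26 FPKM in sham LV and 14.0, 12.4 and 11.5 FPKM in VO RV (0.93 and 0.58). Among the lower genes, Irx1 (−0.99 and −1.26) and Tbx3 (−0.44 and −0.37) had the same sign in both, whereas Tbx2 (−0.69 and −0.15) and the Notch target Hey1 (−0.61 and 0.02) had a small value in the second. Tbx5 was 3.29 to 4.39 FPKM in sham LV and 5.19, 14.9 and 3.75 FPKM in VO RV, where the highest value belonged to the library rich in atrial transcripts.

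**Figure D4:**
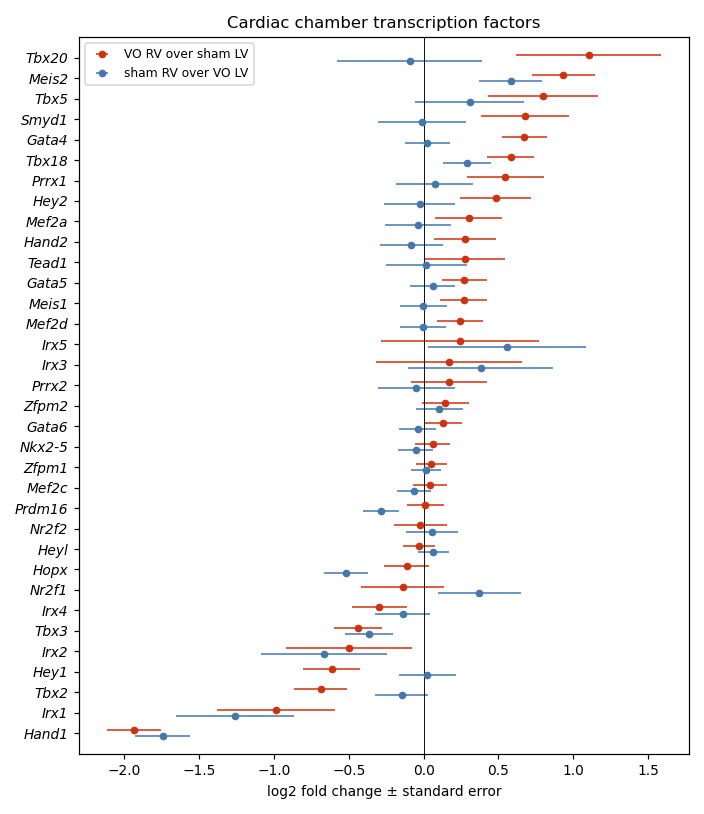
Log2 fold change with its standard error of 34 of the 35 cardiac chamber transcription factors in VO RV over sham LV (red) and sham RV over VO LV (blue). Hand1 lies lowest in both (−1.94 and −1.74), and Gata4 and Tbx20 lie well above 0 in the first comparison and near 0 in the second (0.67 and 1.10 against 0.02 and −0.09), though Tbx20 was 0.59 without VO RV replicate 2.

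Of 29 fetal and load-responsive genes, 11 were higher and 0 lower in VO RV than in sham LV at the unadjusted p, where 3.98% of all tested genes were higher and 3.64% lower, 1 of them a DEG (Nr4a1), with a median of 0.32. In sham RV against VO LV, where the load lay on the LV, 1 was higher and 6 were lower (1.73% and 1.52% of all tested genes), with a median of −0.14. The list shares Nr4a1, Nr4a3 and Cyr61 with the immediate early genes. These all-gene shares are the background of every list count at the unadjusted p. Without VO RV replicate 2 the first comparison had 7 higher and 3 lower (median 0.27). Ctgf, a matricellular protein of the Hippo and TGF-beta pathways, had 35.6, 14.9 and 16.8 FPKM in sham LV and 87.9, 58.1 and 72.6 FPKM in VO RV (1.77 on the log2 scale with a standard error of 0.31, adjusted p = 0.0976, limma). Its relative Cyr61 had 13.6, 10.9 and 15 FPKM in sham LV and 20.9, 28.3 and 25.3 FPKM in VO RV (0.89). For both, the groups did not overlap and sham RV and VO LV overlapped (−0.19 for Ctgf and −0.09 for Cyr61). The 250 bases before the Ctgf start (RefSeq symbol Ccn2, GRCr8, chr1:22624615-22624864, minus strand) are shown because TEAD factors, the partners of the Hippo effector YAP, bind GGAATG, given in capitals.
Ctgf: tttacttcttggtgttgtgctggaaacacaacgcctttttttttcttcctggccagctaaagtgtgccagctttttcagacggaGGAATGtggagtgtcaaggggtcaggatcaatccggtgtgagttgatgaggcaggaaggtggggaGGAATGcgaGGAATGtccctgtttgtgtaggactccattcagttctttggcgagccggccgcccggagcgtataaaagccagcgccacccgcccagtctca
The window holds 3 matches on the printed strand, and 12.1% of the windows of this length hold at least 1 on either strand. The window of Cyr61 (RefSeq symbol Ccn1) holds 1 match, on the other strand.

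The stretch-responsive ankyrin repeat protein Ankrd1 had 668, 510 and 604 FPKM in sham LV and 917, 827 and 950 FPKM in VO RV (0.61, and −0.05 in the mirrored comparison), again without overlap. The natriuretic peptides followed another order. Nppb had 211, 240 and 229 FPKM in sham LV and 160, 226 and 147 FPKM in VO RV (−0.37), and the groups overlapped. In sham RV against VO LV it was a DEG, with 130, 67.1 and 109 FPKM in sham RV and 357, 325 and 427 FPKM in VO LV (log2 fold change −1.90, adjusted p = 0.0233, limma). Nppb did not pass there, among other settings, with the replicate number as a block or the Y-linked level as a covariate. Nor did it pass in the libraries of that comparison alone or without any single VO LV library. Nppa was 519 to 951 FPKM in sham LV and 113 and 73.3 FPKM in VO RV replicates 1 and 3, but 3037 FPKM in replicate 2, where the atrial genes Myl7, Sln and Bmp10 were the highest of the 6 libraries too.

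Of 27 immediate early genes, 9 were higher and 1 lower in VO RV at the unadjusted p, with a median of 0.29, and in sham RV against VO LV the median was −0.19, with 1 gene, Nr4a1, lower and 0 higher. Atf3, a stress-induced factor of the ATF family, had 2.39, 2.20 and 1.51 FPKM in sham LV and 5.70, 3.24 and 4.35 FPKM in VO RV (0.95 and −0.28). The count was 6 higher and 0 lower without VO RV replicate 2. Irs2, the insulin receptor substrate, had 7.27, 3.97 and 5 FPKM in sham LV and 23.1, 18 and 13.2 FPKM in VO RV (log2 fold change 1.66, adjusted p = 0.0976, limma), without overlap, and −0.71 in sham RV against VO LV. Inha, the inhibin alpha subunit (0.57 and −0.46), the mitotic gene Gtse1 (0.43 and −0.35) and Gadd45g (0.70 and −0.55) had the same pattern of signs as Nr4a1. Pik3ip1, an inhibitor of PI3 kinase, had the reverse (−0.49 and 0.30). Of 53 cell cycle genes 44 (6854 of all 13910 tested genes) had a log2 fold change above 0 in VO RV against sham LV and 9 had one above 0 in sham RV against VO LV, with medians of 0.19 and −0.12, although 2 and 1 passed the unadjusted p. The first of these counts was 12 without VO RV replicate 3 and 1 without VO RV replicate 2, where the median was 0.10.

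Of 59 extracellular matrix genes, 11 were higher and 0 lower in VO RV at the unadjusted p and none passed the adjusted test (median 0.33), and in sham RV against VO LV 7 were higher and 0 lower (median 0.25). Tnc, the tenascin C gene, had 5.71, 4.16 and 5.53 FPKM in sham LV and 7.48, 21.9 and 9.39 FPKM in VO RV (1.12 and 0.54), without overlap. Thbs1 (1.03 and −0.13), Prelp (0.88 and 0.39) and Postn (0.65 and 0.57) likewise had no overlap, with the highest value of each in VO RV replicate 2, which also had the highest fibroblast and atrial sums. Without that library the log2 fold changes were 0.67 for Tnc, 0.61 for Thbs1, 0.63 for Prelp and 0.31 for Postn. Without that library 3 matrix genes were higher and 1 lower, with a median of 0.09, and without sham LV replicate 2 there were 6 and 0. Of 10 epicardial markers, 6 were higher in VO RV and 6 in sham RV, with medians of 0.81 and 0.82 in the 2 comparisons. The list was not uniform, with 9 and 7 of its members above 0. Wt1 went the other way, with 15.2 to 15.7 FPKM in sham LV and 11.3, 12.3 and 15.3 FPKM in VO RV. It was also lower in sham RV (10.2 to 10.8 FPKM) than in VO LV (11.3 to 14.2 FPKM). The mesothelial marker Msln had 6.52, 2.51 and 5.62 FPKM in sham LV and 7.57, 13.5 and 23.9 FPKM in VO RV (1.47 and 2.11). The epicardial count was 6 without VO RV replicate 2 and 1 without VO RV replicate 3, which had the highest epicardial sum (80.5 FPKM, against 34.1 to 44.6 FPKM in sham LV). Npr3, a natriuretic peptide clearance receptor of endocardium, had 2.93, 3.47 and 1.70 FPKM in sham LV and 6.47, 20.7 and 9.17 FPKM in VO RV (1.86 and 1.44). The part that wall composition played in these differences was not tested.

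In the endothelial, interferon and respiratory chain lists, members that passed the unadjusted p were lower in VO RV, and none passed the adjusted test. In sham RV against VO LV the lower members numbered 0, 1 and 2 (medians −0.16, −0.13 and −0.11). Of 9 endothelial markers, 3 were lower in VO RV (median −0.36), a count that was 1 without VO RV replicate 2 and 7 without VO RV replicate 3, and their sum was 594 to 645 FPKM in sham LV and 426 to 545 FPKM in VO RV, without overlap. The Notch ligand Dll4, an arterial endothelial gene, had 12.9, 17.6 and 16.3 FPKM in sham LV and 9.54, 7.69 and 11.6 FPKM in VO RV (−0.68 and −0.20), and the endothelial protocadherin Pcdh12 followed (−0.55 and −0.30). Of 34 interferon and antigen presentation genes 7 were lower and 0 higher (median −0.18), among them Bst2 (−0.80 and −0.57) and Rsad2 (−0.65 and −0.22), both antiviral effectors. Sham LV replicate 2 had the most reads of both in its group, 1050 of Bst2 and 466 of Rsad2. The others had 640 and 692 of Bst2 and 322 and 307 of Rsad2. Over the alternatives the first values ranged from −0.95 to −0.49 for Bst2 and from −0.76 to −0.40 for Rsad2. Of 87 nuclear-encoded respiratory chain genes 12 were lower and 0 higher, with a median of −0.20, but 0 were lower and 1 higher without VO RV replicate 2 (median −0.06), and 3 were lower without sham LV replicate 2. Cox6c, a cytochrome c oxidase subunit, had 1408, 1771 and 1426 FPKM in sham LV and 1282, 949 and 1238 FPKM in VO RV (−0.41 and −0.22). The fatty acid carriers Fabp4 (−0.65 and −0.32) and Cd36 (−0.39 and −0.13), both also endothelial, were lower without overlap.

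**Figure D5:**
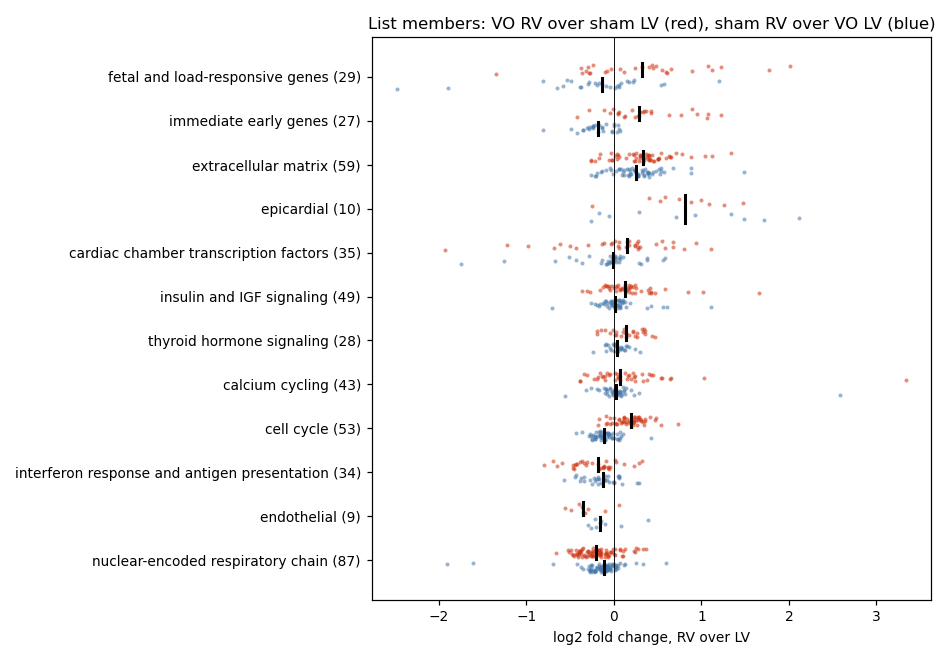
Log2 fold change of the members of 12 gene lists (points; tested members in parentheses) in VO RV over sham LV (red) and sham RV over VO LV (blue), with the median as a black bar. The medians of the load-responsive list lie on opposite sides of 0 (0.32 and −0.14), while those of the epicardial list lie together (0.81 and 0.82).

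The insulin and thyroid hormone receptors, which the study measured in both ventricles, did not pass the adjusted test. The study compared the sham ventricles with each other, and VO with sham within each ventricle, by RNA and protein. VO RV against sham LV is another comparison and tests none of these. Insr had 5.42, 5.11 and 6.43 FPKM in sham LV and 8.20, 8.82 and 6.91 FPKM in VO RV (log2 fold change 0.46, 95% interval 0.13 to 0.79, adjusted p = 0.318, limma), without overlap. Sham RV (9.55 to 12.3 FPKM) lay above both, and the log2 difference between sham RV and sham LV was 0.88. Thra overlapped between the groups, with 34.3 to 40.0 FPKM in sham LV and 37.5 to 45.4 FPKM in VO RV (0.13, 95% interval −0.08 to 0.34, mirrored comparison 0.04). Acsl1, the long-chain acyl-CoA synthetase, had 94.1 to 122 FPKM in sham LV and 101 to 134 FPKM in VO RV (0.05, 95% interval −0.24 to 0.34), against 0.55 between sham RV and sham LV. Of 49 insulin and IGF signaling genes, 6 were higher and 0 lower at the unadjusted p (median 0.13, or 4 higher and a median of 0.05 without VO RV replicate 2), where 3.98% of all tested genes were higher, and of 28 thyroid hormone genes 0 passed in either direction (median 0.14), but 5 were higher and 1 lower without VO RV replicate 3 (median 0.22), a fit with 973 of all tested genes higher. The thyroid hormone median was 0.06 without sham LV replicate 2. Sham RV against VO LV gave 3 higher and 1 lower insulin and IGF genes and 0 thyroid hormone genes. Among 43 calcium cycling genes 7 were higher and 0 lower (median 0.07), among 42 sarcomere genes 7 were higher and 2 lower (0.05), and among 40 ion channel and gap junction genes 5 were higher and 2 lower (0.15). Without VO RV replicate 2 these 3 lists had 3, 4 and 3 higher genes and 0, 1 and 2 lower genes, without sham LV replicate 2 they had 2, 2 and 3 higher genes, and without VO RV replicate 3 they had 10, 9 and 9 higher and 2, 3 and 2 lower genes. Their medians were 0.17, 0.02 and 0.18 without VO RV replicate 3 and 0.08, 0.004 and 0.06 without sham LV replicate 2. In the mirrored comparison they had 0, 0 and 3 higher genes and 1, 4 and 1 lower genes. Pfkp, the platelet-type phosphofructokinase of glycolysis, had 15.7, 14.3 and 18.5 FPKM in sham LV and 28.8, 22.2 and 25.1 FPKM in VO RV (0.64 and −0.01).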

How the data were processed

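The LV and RV free walls of sham and VO rats gave 12 RNA-seq libraries, 3 in each of 4 groups. The authors deposited FPKM values for 32545 genes, each with its Ensembl gene identifier, position and length. Per the labels the processing tools were HISAT2 (2.0.5) and featureCounts (1.5.0-p3), and the authors tested their counts with DESeq2. The genome build is not given in the sources used here, and the positions are those listed in the table. The authors' own counts were not used here, and FPKM was tested on a log scale. Values under 200 reads were whole multiples of what 1 read is worth (within 0.02) for 100% of those checked, which gave the reads per gene, tested with voom as an alternative. All columns could be assigned to a library (0 unassigned).

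FPKM was divided by median-ratio size factors, and 13910 genes with a mean of at least 0.5 FPKM over the 12 libraries were fitted as log2(FPKM + 0.5) in limma (3.58.1, R 4.3.3), with 1 model of the 4 group means and a mean-variance trend. Adjustment of p values (Benjamini-Hochberg) ran over all tested genes. DEGs had a fold change over 1.3 with an adjusted p under 0.05, and the same fold with an unadjusted p under 0.05 is used where counts of genes in lists are given. The scripts were tested on simulated data. Median log2 fold changes of lists are descriptions, and no set test was run.

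Genes were named by a rule: up to 15 genes in each direction with a mean of at least 1 FPKM and no overlap between VO RV and sham LV, DEGs first and then by p, up to 3 members of each list by p, the chamber transcription factors, Insr, Thra and Acsl1, and the 10 genes in each direction with the strongest change of the same sign, or 5 of opposite sign, in both RV against LV comparisons. A few genes that meet the rule are not reported here. Ankrd1, Nppa, Nppb, Bok, Msln and Postn were named after their values were seen. The lists, the comparisons and the rule were chosen with earlier results of these data known. Promoter sequences are from RefSeq (GRCr8). Alternatives covered scaling, pseudocount, filter, gene biotype, covariates, variance model, thresholds, reads in place of FPKM, a replicate block and the omission of each library.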

Additional observations from a re-analysis of the deposited data

Results flagged for a closer look

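For 2 genes the log2 fold changes of the comparisons that share no library differed, by a limma test of the difference that was chosen after the values were seen. This difference equals the VO minus sham difference summed over both ventricles, and is not a test of whether the ventricles differ in their response. For Nr4a1 the log2 fold change of VO RV over sham LV exceeded that of sham RV over VO LV by 2.03 (standard error 0.20, adjusted p = 0.00711, limma). For Sik1 the excess was 2.30 (standard error 0.25, adjusted p = 0.00889, limma). In both genes all 6 VO libraries lay above all 6 sham libraries. The labels do not say how many animals these libraries came from, and the fit treated them as independent.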

How the results depend on the processing

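The 5 DEGs of VO RV against sham LV became 1 with all genes above 0 tested, 0 with the 6 libraries alone, 1 with the Y-linked level as a covariate, 2 with the atrial level as a covariate (Hand1 and Nppa), 1 with array weights, 8 with voom on the recovered reads and 17 at an adjusted p under 0.1. The 2 DEGs of sham RV against VO LV became 4 with a pseudocount of 0.1, 1 with the 6 libraries alone, 0 with the Y-linked covariate (490 at the unadjusted p), 6 with the atrial covariate and 11 with array weights, where the unadjusted counts were 673 and 859 in the 2 comparisons. In alternatives added after the data were seen, omitting VO RV 2 and sham RV 1 gave 2 and 4 DEGs (643 unadjusted in the first comparison), and omitting VO RV 2 and sham LV 2 gave 3 and 4 (541 unadjusted). The cause was not tested.

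Without 1 library, the DEGs numbered 1 to 7 in the first comparison and 0 to 5 in the second. In the first, the count was 1 to 3 whichever library was left out, except sham LV replicate 1 (4), VO RV replicate 2 (6) and VO RV replicate 3 (7). The unadjusted counts ranged from 640 to 1839 and from 374 to 521, with 357 higher and 343 lower without sham LV replicate 2. Genes past the unadjusted p in both comparisons numbered 73 to 173 with the same sign (137 with all libraries) and 10 to 20 with opposite signs (18).

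With the replicate number as a block, 4 genes passed in the first comparison (Ctgf, Nr4a1, Mpped2 and Hand1). In the second 2 passed, Hand1 among them but not Nppb. At the unadjusted p the counts were 960 and 442. Deviations of same-numbered libraries correlated at 0.04, 0.04 and 0.12 between sham LV and sham RV and at 0.05, −0.05 and −0.22 between VO LV and VO RV. Y-linked genes summed to 56.1 FPKM in VO RV replicate 3 but 0.296 FPKM in VO LV replicate 3, so this pair did not share a heart. In sham LV and sham RV alike, Y-linked genes were read in replicates 1 and 2 and not in replicate 3. Not every value was over 0.1, and the numbers were not treated as a pairing.

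Acsl1, close to 0 (0.05), turned negative with array weights (−0.0022), without VO RV 2 and sham LV 2 (−0.019) and without 1 library (−0.070 to 0.14). None of the other 80 genes followed changed sign. Small nucleolar RNAs have no value among protein-coding genes alone. At 3 libraries a group, low genes rest on few reads.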

Other observations

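Bok, a member of the BCL2 family, passed the mean of the 2 comparisons, with log2 fold changes of −0.30 in VO RV over sham LV and −0.86 in sham RV over VO LV. It was named after its values were seen. Of 28 heat shock protein and chaperone genes, 1 was higher and 1 lower in VO RV (median 0.14), and of 20 circadian clock genes 1 was higher (median 0.00). Of 41 desmosome and intercalated disc genes, 5 were higher and 0 lower (median 0.18), where 3.98% of all tested genes were higher. The count was 3 without VO RV replicate 2 and 16 without VO RV replicate 3, a fit in which the higher genes among all tested rose in number from 553 to 973. Of 38 proteasome subunits 1 was lower (median −0.10), and of 73 mitochondrial ribosomal proteins 1 was higher and 2 were lower (median −0.11). Of 216 small nucleolar RNAs 10 were higher and 21 lower, with a median of −0.15 that was 0.00 once the gene-length trend of each library was removed.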
